A study of Mus musculus with 4 samples.

Results

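Small leucine-rich proteoglycans (SLRPs) are secreted proteins of the connective tissue matrix whose curved core is built of leucine-rich repeats. The group described here held 9 of the 32285 genes measured, namely *Dcn* (decorin), *Bgn* (biglycan), *Aspn* (asporin), *Lum* (lumican), *Kera* (keratocan), *Fmod* (fibromodulin), *Omd* (osteomodulin), *Prelp* and *Ogn* (osteoglycin). The list was chosen by name and selected on the members' measured differences between the genotypes in mesenchymal cells of the same libraries. Those differences are therefore given as a description, without P values. Where a member is said to be called (adjusted p under 0.05) in mesenchymal cells, this is part of the description and not read as a test. Tests are read only for other genes and for cells outside the mesenchyme.

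Single-cell mRNA was measured in male mouse genitalia at embryonic day 16.5 (E16.5), in 2 control libraries (DTA-) and 2 ablated libraries (DTA+). DTA+ embryos had the genotype Nr5a1cre+ with DTA f/+, in which *Nr5a1*-driven Cre switches on diphtheria toxin A from the Rosa locus and kills the cells of that lineage. DTA- embryos, labelled WT, were Nr5a1cre- and also had DTA f/+, so that the toxin allele was common to both groups and stayed silent in the controls. The model is limited in that *Nr5a1*-driven Cre also acts in the adrenal glands and the testes, so the DTA+ embryos were not altered in the penis alone. Whether a library held 1 penis or several is not given in the sources used here. The libraries held 11343 to 12580 cells and 50779551 to 73577028 unique molecular identifiers (UMIs, 1 for each captured mRNA molecule). After the cell filters, 31132 of 47040 cells remained, with a median of 4700 and 4077 UMIs per cell in the DTA- and 3551 and 3560 in the DTA+ libraries, so the kept control cells held more UMIs each. In each sentence below the replicates follow in the order 1 and 2 within a genotype.

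SLRPs bind to collagen fibrils, restrain their sideways growth and set their spacing, and they hold growth factors such as TGF-β in the matrix. The class I members *Dcn* and *Bgn* carry chondroitin or dermatan sulfate chains, whereas *Aspn* of the same class has an acidic stretch and lacks such chains. The class II members *Lum*, *Kera*, *Fmod* and *Omd* can carry keratan sulfate, and *Prelp* binds heparan sulfate and anchors basement membranes to collagen. *Ogn* belongs to class III and has fewer repeats. In dermis, tendon and cornea these proteins are known for shaping the collagen network, and *Lum* is needed for a clear cornea.

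In the GRCm38 annotation, 3 members stood side by side on the plus strand of chromosome 10: *Dcn* (97479609 to 97518143), *Lum* (97565128 to 97572703) and *Kera* (97606879 to 97613692). Another run on chromosome 13, also on the plus strand, held *Aspn* (49544443 to 49567565), *Omd* (49582462 to 49592822) and *Ogn* (49608046 to 49624501), all inside *Cenpp* (49464023 to 49652785), which lies on the minus strand. The sources used here do not state whether counting used the strand, and without it the reads of *Cenpp* (10.2 to 14.0 CPM, or UMI counts-per-million, in the mesenchymal cells of the 4 libraries) cannot be told apart from theirs. *Prelp* (133910304 to 133921414, minus strand) and *Fmod* (134037254 to 134048277, plus strand) were neighbours on chromosome 1, and *Bgn* (73483602 to 73495933, plus strand) was alone on chromosome X.

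The promoters of the chromosome 13 neighbours are shown because *Aspn*, *Omd* and *Ogn*, although adjacent, were highest in different populations, and that of *Bgn* because its level varied least. Each sequence holds the 250 bases before the RefSeq start (GRCm38.p6, plus strand), at chr13:49544193-49544442, chr13:49582212-49582461, chr13:49607765-49608014 and chrX:73483351-73483600. Capitals mark matches to TATAAA (the TATA box), GGGCGG (the GC box) or AGAACA (a steroid receptor half-site) on either strand.
Aspn: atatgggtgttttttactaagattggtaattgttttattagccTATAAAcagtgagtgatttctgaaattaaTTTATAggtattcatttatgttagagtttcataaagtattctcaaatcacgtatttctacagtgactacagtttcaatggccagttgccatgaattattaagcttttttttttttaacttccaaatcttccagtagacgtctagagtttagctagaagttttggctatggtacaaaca
Omd: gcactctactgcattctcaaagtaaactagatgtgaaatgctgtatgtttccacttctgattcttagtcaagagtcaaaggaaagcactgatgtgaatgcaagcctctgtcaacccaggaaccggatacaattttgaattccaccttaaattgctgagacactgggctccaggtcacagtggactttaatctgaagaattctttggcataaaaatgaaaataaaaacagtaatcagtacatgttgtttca
Ogn: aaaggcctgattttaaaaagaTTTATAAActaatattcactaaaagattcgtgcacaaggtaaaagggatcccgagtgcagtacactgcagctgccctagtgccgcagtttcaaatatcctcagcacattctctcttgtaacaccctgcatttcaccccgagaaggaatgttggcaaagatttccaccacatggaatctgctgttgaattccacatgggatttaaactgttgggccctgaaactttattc
Bgn: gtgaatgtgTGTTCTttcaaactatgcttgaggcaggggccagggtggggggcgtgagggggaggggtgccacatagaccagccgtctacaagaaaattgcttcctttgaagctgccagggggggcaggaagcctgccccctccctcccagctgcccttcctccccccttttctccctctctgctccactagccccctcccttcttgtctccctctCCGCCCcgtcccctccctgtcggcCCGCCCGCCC

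*Aspn* held 2 TATAAA matches, *Ogn* 2 that overlap on opposite strands, and *Omd* none. *Bgn* held 3 GGGCGG matches, of which 2 overlap, and 1 AGAACA match. The E-box CANNTG was also counted but is not capitalized, with 1 match in *Aspn*, 3 in *Ogn*, 1 in *Bgn* and none in *Omd*. Of the 32851 promoters of this length in the RefSeq table, 12.37% held TATAAA, 32.74% GGGCGG, 16.08% AGAACA and 66.22% CANNTG. The share of G and C was 30% in *Aspn*, 38.4% in *Omd*, 42% in *Ogn* and 64.4% in *Bgn*, against a median of 52.4%. Promoters of 7 of the 9 members were in that table, *Dcn* and *Lum* being the others. A match is a description of the letters and not a binding site.

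Clustering of the kept cells, with the 9 members left out of the clustering genes, gave 27 clusters, of which 19 were mesenchymal. These held 28398 cells (91.2%), at least 7 of the 8 mesenchymal markers, such as *Pdgfra* and *Col1a1*, being detected in at least 20% of the cells of each. Populations are called by their 2 leading genes. From their markers, Ecrg4/Sox9 and Col9a1/Col9a3 were corpus cavernosum-like, Epha3/Calcrl periurethra-like, Msx2/Inhba and Tac1/Prss23 distal glans-like, and Sostdc1/Wnt16 and Coch/Meox2 general prepuce-like. Cpm/Hs3st3b1 was osteogenic-like, Top2a/Ube2c and Hist1h1b/Cenpf were cycling-like, and 7 were not named. Cycling markers such as *Mki67* were also enriched in Col9a1/Col9a3, and distal glans markers such as *Msx1* in Top2a/Ube2c. Some unnamed populations had enriched markers too, but none among their most enriched genes. These were subdermal prepuce markers in Akap12/Dlk1 and Thbd/Ptgis (*Dpt* and *Cd34* in both) and distal glans markers in Rprm/Dsc3. Of the 19 populations, 17 had at least 20 cells in every library and enter the counts below, of which 16 are described one by one; Iyd/Stmn2 had fewer in the controls. Any pair of libraries shared between 31 and 48 cell barcodes.

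Summed over all mesenchymal cells, markers of other cell types were low, apart from the erythroid ones, and did not all stay level between the genotypes. The 7 smooth muscle markers summed to 146 and 222 CPM in the DTA- and 119 and 107 CPM in the DTA+ libraries, the 5 neuronal markers to 12.2 and 21.3 CPM in the DTA- and 44.5 and 41.0 CPM in the DTA+ libraries, and the 7 erythroid markers, mostly hemoglobin, to 2882 and 1985 CPM in the DTA- and 1701 and 626 CPM in the DTA+ libraries. No marker of the 12 cell type lists was at 0 in all libraries. The groups also did not overlap for 6 more of the 11 lists of other cell types, at lower sums, with DTA+ higher for melanocyte (5.23 and 4.24 CPM in the DTA- and 9.90 and 10.2 CPM in the DTA+ libraries), macrophage (5.66 and 7.21 CPM in the DTA- and 11.1 and 8.70 CPM in the DTA+ libraries), glial, endothelial and pericyte markers and lower for mast cell markers. Only the epithelial and skeletal muscle sums overlapped. For all 9 lists their part in the differences of the SLRPs was not tested.

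In the mesenchyme as a whole, the SLRPs spanned a wide range of levels, and *Lum* was the member with the largest difference between the genotypes. Levels are in CPM of the cells summed in a library. Each UMI marks the 3′ end of 1 molecule, so the values need no correction for transcript length. Fitted differences are log2 fold changes of DTA+ over DTA- from edgeR, each ± its standard error (SE) with 2 libraries per genotype.

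Among class I, *Dcn*, the best known regulator of collagen fibril width, was the most abundant member, at 1264 and 1584 CPM in the DTA- and 2220.2 and 1569 CPM in the DTA+ libraries. DTA+ replicate 1 was the highest and DTA- replicate 1 the lowest library, the groups overlapped, and the log2 fold change was 0.34 ± 0.18. *Bgn*, its closest relative, stood at 503 and 495 CPM in the DTA- and 517 and 464 CPM in the DTA+ libraries, overlapping values with a log2 fold change of -0.094 ± 0.10. For *Aspn*, which also binds TGF-β, the levels were 157 and 168 CPM in the DTA- and 227 and 225 CPM in the DTA+ libraries. Both DTA+ libraries lay above both controls, with little spread within a genotype, and the log2 fold change was 0.41 ± 0.10.

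Of class II, *Lum* was at 224 and 276 CPM in the DTA- and 612 and 385 CPM in the DTA+ libraries. Every DTA+ library exceeded every control, although DTA+ replicate 1 stood well above DTA+ replicate 2, and the log2 fold change was 0.93 ± 0.22. Without DTA+ replicate 1 it was 0.54. The other class II genes were expressed at far lower levels. *Kera* was measured at 14.0 and 24.6 CPM in the DTA- and 29.4 and 25.3 CPM in the DTA+ libraries, where DTA- replicate 1 was the low library (0.43 ± 0.25), and the difference was 0.089 without that library and 0.88 without DTA- replicate 2. *Prelp* stood at 1.4 and 1.4 CPM in the DTA- and 2.12 and 2.59 CPM in the DTA+ libraries (0.68 ± 0.26), the DTA+ libraries being above the controls.

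*Omd*, known from bone and tooth, was the only member whose DTA+ libraries both lay below the controls, at 5.76 and 5.70 CPM in the DTA- and 4.72 and 5.36 CPM in the DTA+ libraries (-0.26 ± 0.18). *Fmod*, a fibril regulator of tendon, stood at 8.20 and 6.83 CPM in the DTA- and 7.29 and 8.45 CPM in the DTA+ libraries (-0.0030 ± 0.18), with overlapping groups. The class III member *Ogn* was at 289.9 and 499.8 CPM in the DTA- and 504 and 332 CPM in the DTA+ libraries, DTA- replicate 2 and DTA+ replicate 1 being the higher libraries, and its log2 fold change of 0.015 ± 0.28 changed sign with the library left out, from -0.33 to 0.45.

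**Figure D1:**
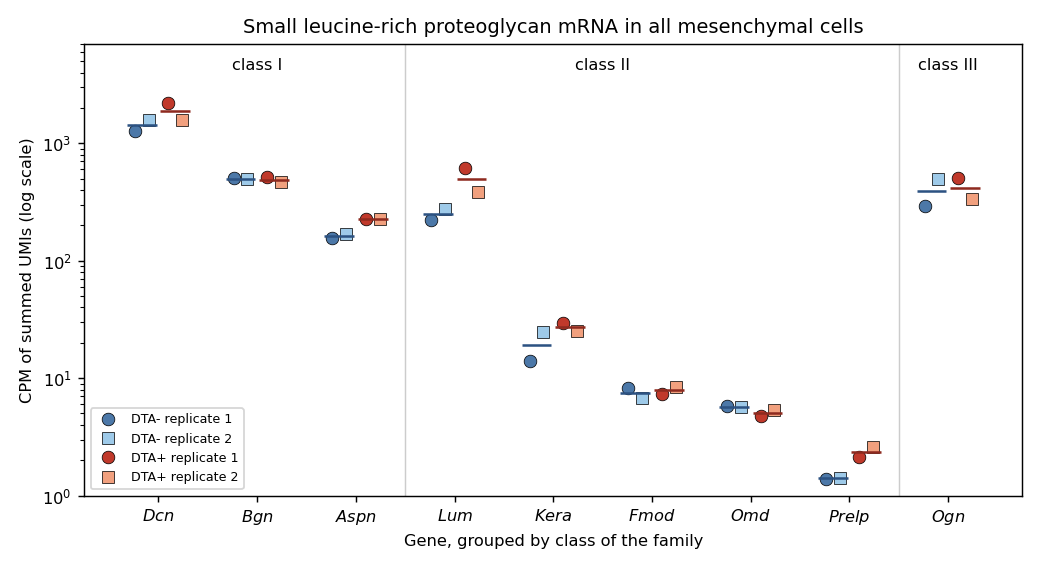
Level of each member in mesenchymal cells (CPM, log axis) in the 2 DTA- and 2 DTA+ libraries, 1 point per library with the group mean as a bar. *Lum*, *Kera*, *Aspn* and *Prelp* have both DTA+ points above the controls, *Omd* has both below, and *Dcn*, *Bgn*, *Fmod* and *Ogn* overlap.

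Across the 9 members the median log2 fold change was 0.34, beside -0.00039 over the 15209 genes tested. The genotypes did not overlap for 4 members above and 1 below the controls, while over all genes 33.4% lay above and 18.1% below without overlap. With edgeR's quasi-likelihood test, 0 of the 9 had an adjusted p under 0.05, against 1.26% of all genes (192, of which 100 were higher and 92 lower in DTA+). At an unadjusted p under 0.05 there were 3 (*Lum*, *Aspn* and *Prelp*), beside 2645 of the 15209 genes. DESeq2 and edgeR's likelihood ratio test each called 1, *Lum*. As the members were listed with this contrast known, nothing is read from these counts.

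Together the 9 genes gave 0.247 and 0.306% of mesenchymal UMIs in the DTA- and 0.412 and 0.302% in the DTA+ libraries, with overlapping groups. *Dcn* alone supplied 51.2 to 53.8% of the SLRP UMIs in every library. *Lum* made up 9.07 and 9.02% of them in the controls and 14.8 and 12.8% in DTA+, without overlap, and *Bgn* 20.4 and 16.2% against 12.5 and 15.4%.

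The SLRPs were not all highest in the same mesenchymal populations, although some shared their highest. In what follows, levels are means ± SD over the 4 libraries (n = 4, both genotypes), and neighbours in the order of levels are said to lie within the spread where their means differ by no more than the larger of their SDs. As the populations come from clustering these cells, no test of one population against the rest was made. *Bgn* was the most even member, with a ratio of 3.39 between its highest and lowest population. It was led by the corpus cavernosum-like Col9a1/Col9a3 at 927 ± 49.5 CPM and Ecrg4/Sox9 at 849 ± 51.6 CPM, which differed beyond the spread, and was lowest in Hist1h1b/Cenpf at 273 ± 33.4 CPM, within the spread of Irx1/Icam1 at 278 ± 42.3 CPM. *Dcn*, with a ratio of 21.3, was highest in Akap12/Dlk1 at 4573 ± 689 CPM, Thbd/Ptgis at 4312 ± 614 CPM and Nefl/Nefm at 4293 ± 994 CPM, which lay within the spread of one another and beyond that of the next, Sostdc1/Wnt16 at 2033 ± 665 CPM. Its lowest populations were the distal glans-like Tac1/Prss23 at 232 ± 119 CPM and Msx2/Inhba at 215 ± 118 CPM.

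*Aspn* peaked in Ecrg4/Sox9 at 1007 ± 191 CPM, beyond the spread of Nefl/Nefm at 562 ± 119 CPM, Epha3/Calcrl at 549 ± 190.1 CPM and Col9a1/Col9a3 at 492 ± 101 CPM, which lay within the spread of one another. Its lowest populations were Tac1/Prss23 at 9.16 ± 1.46 CPM and Sostdc1/Wnt16 at 9.81 ± 4.02 CPM, a ratio of 109.9 between the highest and the lowest. *Lum* was led by Irx1/Icam1 at 1420.4 ± 208 CPM, beyond the spread of Hist1h1b/Cenpf at 857 ± 221 CPM, then Akap12/Dlk1 at 653 ± 313 CPM and Nefl/Nefm at 439 ± 171 CPM, and was lowest in the corpus cavernosum-like Col9a1/Col9a3 at 25.7 ± 13.8 CPM and in Coch/Meox2 at 25.8 ± 5.29 CPM, within the spread of each other. Of the 16 populations described, *Ogn* was highest in Akap12/Dlk1 at 949.9 ± 142 CPM, beyond the spread of the periurethra-like Epha3/Calcrl at 675 ± 225 CPM, and lowest in Tac1/Prss23 at 17.7 ± 6.09 CPM.

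Of the scarce members, *Kera* was centred on Nefl/Nefm at 275 ± 129.6 CPM, beyond the spread of the next, Thbd/Ptgis at 59.0 ± 20.1 CPM. *Omd* was centred on the osteogenic-like Cpm/Hs3st3b1 at 46.3 ± 13.8 CPM, beyond the spread of Hand2os1/Prss35 at 22.1 ± 15.1 CPM, and *Fmod* was also highest there, with Cpm/Hs3st3b1 at 38.7 ± 21.1 CPM within the spread of Epha3/Calcrl at 23.0 ± 3.73 CPM. *Prelp* reached 11.8 ± 6.87 CPM in its highest population, Epha3/Calcrl, and had no UMI in Tac1/Prss23 and Col9a1/Col9a3.

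**Figure D2:**
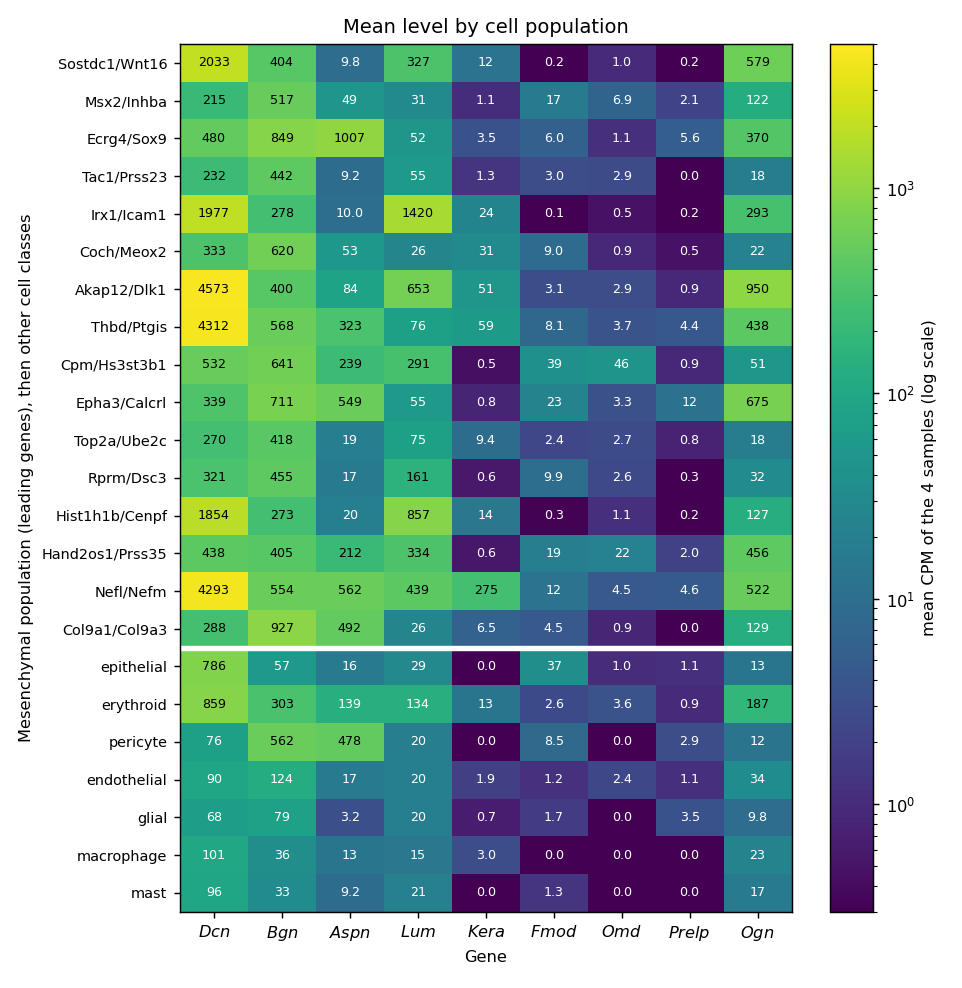
Mean CPM over the 4 libraries of each member (columns) in 16 mesenchymal populations and, below the white line, 7 other cell classes (rows), printed and shown by colour on a log scale. *Bgn* is present across the mesenchyme, *Aspn* peaks in Ecrg4/Sox9, *Lum* in Irx1/Icam1, *Kera* in Nefl/Nefm and *Omd* in Cpm/Hs3st3b1.

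Over the 19 mesenchymal populations, correlations of log2(CPM + 10) between members are given as a description, since the points share their libraries and differ in depth. *Lum* and *Dcn* had r = 0.76, *Dcn* and *Kera* 0.71, and *Dcn* and *Ogn* 0.66. *Bgn* went with *Aspn* (0.74) and against *Lum* (-0.76) and *Dcn* (-0.46), and *Fmod* went with *Omd* (0.74). Among 8671 genes with at least 20 CPM in at least 1 population, those most like each member by the same r were, for *Lum*, *Ggta1* (0.92), *Tmem246* (0.89) and *Tmem158* (0.88), and for *Dcn*, *C430049B03Rik* (0.90), *A4galt* (0.90) and *Erlec1* (0.89). *Aspn* was most like *Thbs3* (0.92), which encodes a thrombospondin of the matrix, *Bgn* like *Vasn* (0.88), which encodes a membrane protein that traps TGF-β, and *Kera* like *Colgalt2* (0.88), a collagen galactosyltransferase. For *Ogn* the closest was *Slc35f5* (0.91), for *Fmod* *Cxadr* (0.86) and for *Prelp* *Mustn1* (0.87). *Prelp* had a mean of 11.8 CPM in its highest population, under the 20 CPM asked of the compared genes, so its r rests on few molecules. *Omd* was closest to *Dio2* (0.92), with the osteoblast factor *Sp7* (0.90) also among its nearest 5.

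The genotypes were next compared within single populations. Of 153 pairs of member and population, 108 passed the filter on low counts, which can keep a pair through the genotype in which it is high. In 19 of these the adjusted p was under 0.05 with DTA+ higher and in 2 with DTA+ lower. Over all genes tested in the same 17 populations, 1.74% of gene and population pairs were called higher and 1.87% lower (3.61% in all). The genotypes did not overlap in 41 of the 108 pairs above and in 10 below, against 25.1% and 19.7% of all pairs. DESeq2 called 14 of the 108 and the likelihood ratio test 29. The shares called that are given here are of the quasi-likelihood test only. They are no background for the counts of DESeq2 and the likelihood ratio test. All these counts come from the contrast that chose the members and are given as a description.

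**Figure D3:**
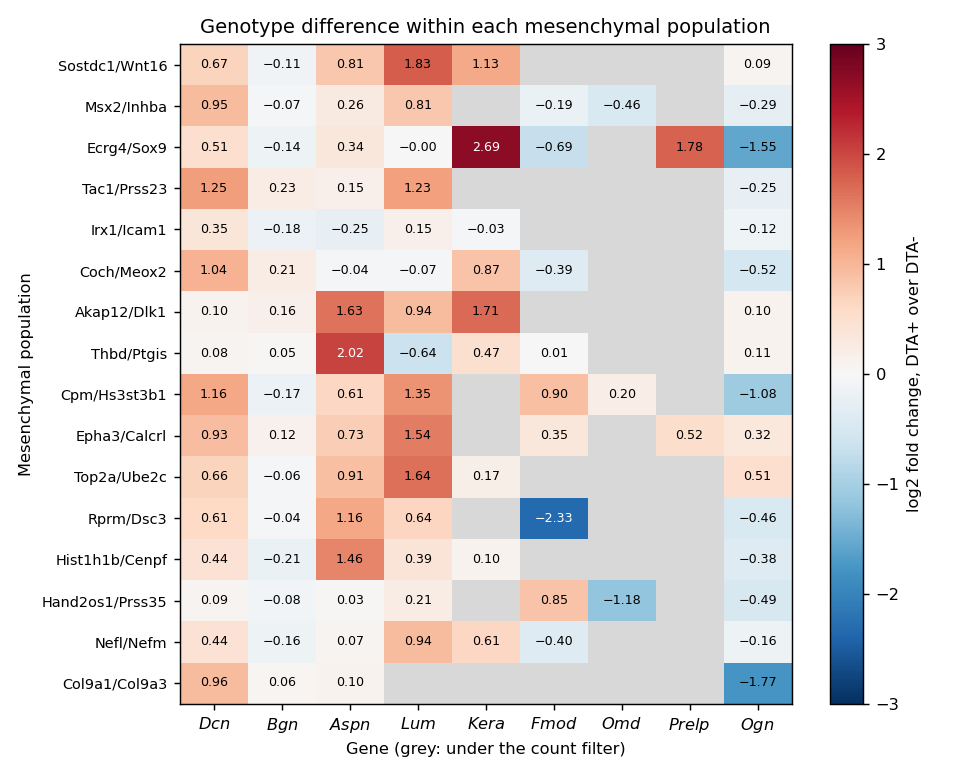
Fitted log2 fold change (DTA+ over DTA-) of each member (columns) in 16 mesenchymal populations (rows), printed and shown by colour, with pairs under the filter on low counts in grey. *Lum* and *Dcn* are mostly positive, *Bgn* stays near 0, and *Aspn* reaches 2.02 in Thbd/Ptgis, while *Ogn* is at -1.55 in Ecrg4/Sox9.

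For each member below, the shares over all genes to set beside its counts were 3.61% of pairs called, 25.1% above without overlap and 19.7% below. These shares cover only pairs that passed the filter on low counts. The share called is of the quasi-likelihood test, so it is no background for counts by other tests or at an unadjusted p. The counts without overlap of a member out of 17 populations also include pairs under the filter, so the sets differ. As the members were chosen on this contrast, their calls are a description. *Lum* had DTA+ libraries above the controls without overlap in 10 of 17 populations and in none below. Its fitted difference had an adjusted p under 0.05 in 8 of 16. In the general prepuce-like Sostdc1/Wnt16 the levels were 180.4 and 99.2 CPM in the DTA- and 518 and 509 CPM in the DTA+ libraries, a tight DTA+ pair well above the controls (1.83 ± 0.23). The osteogenic-like Cpm/Hs3st3b1 had 183 and 142 CPM in the DTA- and 482 and 357 CPM in the DTA+ libraries (1.35 ± 0.19) and Akap12/Dlk1 516 and 373 CPM in the DTA- and 1096 and 627 CPM in the DTA+ libraries (0.94 ± 0.23). It was also called in Tac1/Prss23 (1.23), Epha3/Calcrl (1.54), Top2a/Ube2c (1.64) and Nefl/Nefm (0.94). In its highest population, Irx1/Icam1, *Lum* overlapped between the genotypes, at 1328 and 1301 CPM in the DTA- and 1733 and 1321 CPM in the DTA+ libraries (0.15 ± 0.16), and in Thbd/Ptgis the fitted difference was negative (-0.64 ± 0.25) with overlapping levels of 66.7 and 117 CPM in the DTA- and 78.9 and 43.2 CPM in the DTA+ libraries.

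*Dcn* had a positive fitted difference in all 17 populations, the lowest being 0.081, and the genotypes did not overlap in 13. The 5 called populations were not among its highest. Tac1/Prss23 had 160.4 and 102 CPM in the DTA- and 343 and 321 CPM in the DTA+ libraries, evenly separated (1.25 ± 0.16). Cpm/Hs3st3b1 (1.16), Coch/Meox2 (1.04) and Ecrg4/Sox9 (0.51) were also called. In its highest populations, Akap12/Dlk1, at 4686 and 4074 CPM in the DTA- and 5503 and 4027 CPM in the DTA+ libraries (0.10 ± 0.13), and Thbd/Ptgis (0.081 ± 0.12), the genotypes overlapped.

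*Bgn* was not called in any population. Its fitted differences ran from -0.21 to 0.23 over the 17 populations, and 0 were called by edgeR's quasi-likelihood test, with 0 at an unadjusted p under 0.05 and 0 by DESeq2 or the likelihood ratio test. In Sostdc1/Wnt16, where *Lum* was far apart between the genotypes, *Bgn* stood at 393 and 430.0 CPM in the DTA- and 419 and 374 CPM in the DTA+ libraries (-0.11 ± 0.15).

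*Aspn* was called in 3 populations. In Thbd/Ptgis it was at 131 and 117 CPM in the DTA- and 552 and 493 CPM in the DTA+ libraries (2.02 ± 0.16), the DTA+ pair and the control pair each being tight. Akap12/Dlk1 had 37.1 and 42.9 CPM in the DTA- and 152 and 103 CPM in the DTA+ libraries (1.63 ± 0.23) and Epha3/Calcrl 396 and 409 CPM in the DTA- and 802 and 587 CPM in the DTA+ libraries (0.73 ± 0.17). In its highest population, Ecrg4/Sox9, the DTA+ libraries lay above the controls, at 809 and 889 CPM in the DTA- and 1219.8 and 1109 CPM in the DTA+ libraries (0.34 ± 0.13, not called).

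Of the neighbours of *Aspn*, *Ogn* was called in 1 population, the corpus cavernosum-like Ecrg4/Sox9, with the opposite sign, at 435 and 646 CPM in the DTA- and 242 and 158 CPM in the DTA+ libraries (-1.55 ± 0.21). The same order was seen in the small Col9a1/Col9a3, at 249 and 156 CPM in the DTA- and 72.8 and 36.2 CPM in the DTA+ libraries (-1.77 ± 0.36, not called). In Akap12/Dlk1, where *Ogn* was high, its levels of 845 and 974 CPM in the DTA- and 1141 and 839 CPM in the DTA+ libraries overlapped (0.10 ± 0.16). *Omd* was lower without overlap in 6 of 17 populations and higher in 1, with 1 called lower of the 4 tested. Akap12/Dlk1, Epha3/Calcrl and Nefl/Nefm of the lower ones, and the higher Hist1h1b/Cenpf, were under the filter on low counts. In this order they held 6 and 23, 7 and 9, 5 and 7, and 0 and 1 UMIs in the DTA- libraries. In the DTA+ libraries they held 3 and 2, 0 and 2, 1 and 3, and 4 and 1, so they rest on few molecules. In the osteogenic-like Cpm/Hs3st3b1, its highest population, *Omd* overlapped, at 43.2 and 39.9 CPM in the DTA- and 66.5 and 35.4 CPM in the DTA+ libraries (0.20 ± 0.28).

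*Kera* was called in 2 populations outside its centre. Akap12/Dlk1 had 24.2 and 23.0 CPM in the DTA- and 99.3 and 56.4 CPM in the DTA+ libraries (1.71 ± 0.27), both DTA+ libraries being above the controls. In Ecrg4/Sox9 it was seen as 3 and 1 UMIs in the DTA- and 13 and 18 in the DTA+ libraries, and *Prelp* as 8 and 3 against 22 and 22 UMIs, so the fitted differences of 2.69 ± 0.62 and 1.78 ± 0.47 rest on few molecules. In Nefl/Nefm, where *Kera* was highest, its levels of 137 and 292 CPM in the DTA- and 228 and 445 CPM in the DTA+ libraries overlapped (0.61 ± 0.35). *Fmod* had 0 calls in 9 populations tested with edgeR's quasi-likelihood test, 2 at an unadjusted p under 0.05, 0 by DESeq2 and 1 by the likelihood ratio test, the largest difference being -2.33 ± 0.64 in Rprm/Dsc3, at 15.8 and 19.4 CPM in the DTA- and 0 and 4.35 CPM in the DTA+ libraries.

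**Figure D4:**
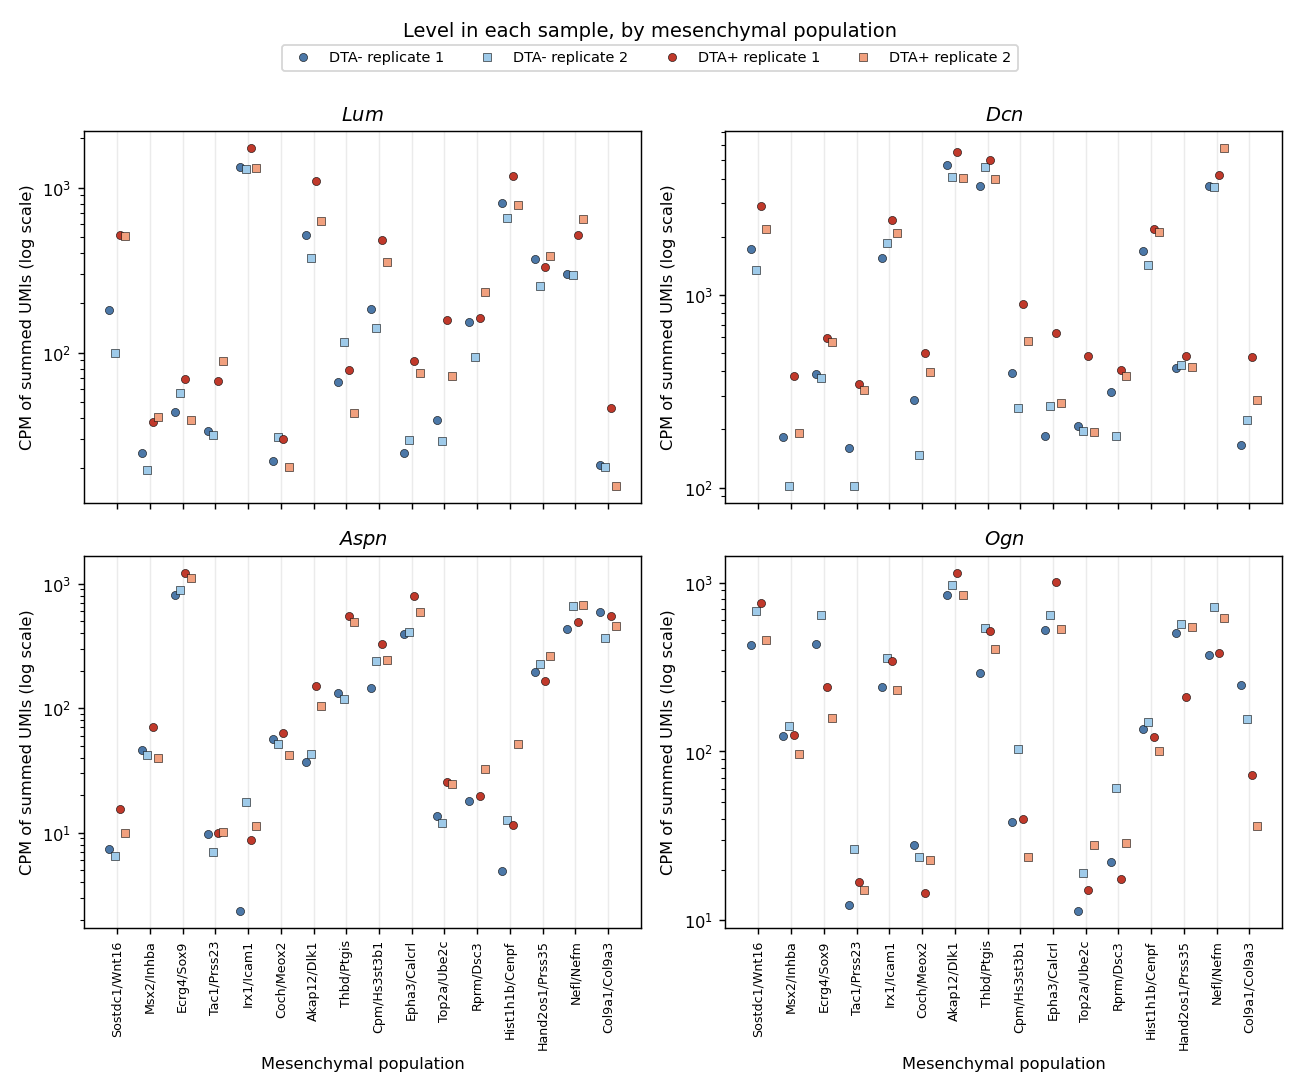
Levels of *Lum*, *Dcn*, *Aspn* and *Ogn* (CPM, log axis) in 16 mesenchymal populations, 1 point per library, the DTA- libraries in blue and the DTA+ libraries in red. A value of 0 is not drawn, as for *Aspn* in Rprm/Dsc3 of DTA- replicate 2. In Sostdc1/Wnt16 *Lum* and *Dcn*, and in Thbd/Ptgis *Aspn*, lie higher in DTA+, while in Ecrg4/Sox9 *Ogn* lies lower.

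All 21 calls kept their direction with each library left out. As they were picked in these same libraries, this was close to fixed in advance and is no support for the differences. Not all of them stayed calls. There remained 19 without DTA- replicate 1, 17 without DTA- replicate 2, 15 without DTA+ replicate 1 and 17 without DTA+ replicate 2. The calls of *Dcn*, *Kera* and *Prelp* in Ecrg4/Sox9 were lost without either DTA+ library, as were *Aspn* in Epha3/Calcrl and *Lum* in Top2a/Ube2c without either DTA- library. *Aspn* in Epha3/Calcrl, *Lum* in Akap12/Dlk1 and *Dcn* in Cpm/Hs3st3b1 were also lost without DTA+ replicate 1, *Lum* in Nefl/Nefm without DTA+ replicate 2, and *Prelp* in Ecrg4/Sox9 also without DTA- replicate 2. With no filter on low counts 17 of the 21 remained, *Dcn*, *Kera*, *Ogn* and *Prelp* in Ecrg4/Sox9 being lost. DESeq2 kept 13, gave no adjusted p for 3 and lost 5, among them *Lum* in Akap12/Dlk1 and *Dcn* in Coch/Meox2 and Cpm/Hs3st3b1. Over all genes tested, the share called was 12.7% in Thbd/Ptgis, 7.76% in Ecrg4/Sox9, 8.0% in Tac1/Prss23, 7.63% in Coch/Meox2, 4.24% in Akap12/Dlk1, 3.46% in Epha3/Calcrl, 2.90% in Cpm/Hs3st3b1, 2.04% in Sostdc1/Wnt16, 1.04% in Top2a/Ube2c and 0.617% in Nefl/Nefm, so a call was commoner in some populations than in others. Marker levels moved in the same populations. In Ecrg4/Sox9 the 6 general prepuce markers summed to 278 and 383 CPM in the DTA- and 684 and 578 CPM in the DTA+ libraries, without overlap, and in Thbd/Ptgis the 7 smooth muscle markers to 112 and 126 CPM in the DTA- and 35.5 and 27.9 CPM in the DTA+ libraries. Their part in the differences was not tested.

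The summed values include populations that the genotypes did not share evenly. Iyd/Stmn2 held 0.101 and 0.128% of mesenchymal cells in the DTA- and 8.38 and 4.27% in the DTA+ libraries, and it supplied 0.0320 and 0.0371% of all mesenchymal *Lum* UMIs in the former against 14.4 and 15.1% in the latter. One of its leading genes, *Stmn2*, is on the list of neuronal markers. For *Dcn* the shares were 0.374 and 0.207% against 19.1 and 14.6%, and for *Ogn* 0.296 and 0.130% against 27.6 and 15.6%. In the DTA+ libraries its *Dcn* level of 4693 and 4657 CPM was like that of the highest populations. Only Iyd/Stmn2 and Top2a/Ube2c differed in share at least 2-fold between every DTA- and every DTA+ library. These 2 are called the populations of uneven share. Without both, the summed log2 fold change was 0.75 for *Lum*, 0.13 for *Dcn* and 0.13 for the median member. Other shares also varied. Akap12/Dlk1 held 6.001 and 13.54% of mesenchymal cells in the DTA- and 4.444 and 3.933% in the DTA+ libraries. It supplied 24.66 and 40.18% of all mesenchymal *Dcn* UMIs in the former against 13.58 and 11.61% in the latter. Irx1/Icam1, highest in *Lum*, held 5.443 and 9.571% of cells against 10.72 and 3.693%. The part of these shares in the summed differences was not tested.

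Counted per cell, *Lum* UMIs were found in 25 and 28.3% of mesenchymal cells of the DTA- and 41.0 and 34.3% of the DTA+ libraries. After random thinning of all cells to an equal depth of 1000 UMIs they were 12.3 and 15.4% against 25.8 and 19.1%, still without overlap. *Dcn* was found in 58.4 and 63.5% against 74.8 and 62.7% (38.8 and 46.1% against 58.3 and 44.6% when thinned), and *Bgn* in 82.5 and 79.3% against 76.6 and 75.4% (37.7 and 38.3% against 38.4 and 35.5%). In macrophages, which should lack these transcripts, 2.90 to 7.14% of cells held a UMI of *Lum*, 7.25 to 23.4% one of *Dcn* and 4.35 to 13.3% one of *Bgn*. The median depth was 4443 to 5302.5 UMIs in macrophages and 3504 to 4714 in mesenchymal cells. After thinning, 28.2 and 22.6% of the mesenchymal cells of the DTA- and 15.6 and 24.4% of the DTA+ libraries held no UMI of any member.

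Cells outside the mesenchyme were compared in 7 classes. Of 19 pairs of member and class that passed the filter, 2 were called higher in DTA+, both in erythroid cells, against 0.145% of all genes in the 7 classes and 0.575% in erythroid cells. *Lum* stood there at 76.9 and 92.7 CPM in the DTA- and 199 and 166 CPM in the DTA+ libraries, a log2 fold change of 1.29 ± 0.23. *Aspn* was at 119 and 71.5 CPM in the DTA- and 188 and 176 CPM in the DTA+ libraries (1.15 ± 0.24). *Dcn* at 785 and 613 CPM in the DTA- and 1247 and 789.7 CPM in the DTA+ libraries was not called (0.75 ± 0.18). The erythroid cluster carried RNA of mesenchymal genes, so its values are not independent of those that chose the members and are given without P values. All 8 mesenchymal markers were found in at least 20% of its cells. Their sum there was 5919 and 7339.8 CPM in the DTA- and 5741 and 4725 CPM in the DTA+ libraries, lower in both DTA+ libraries, beside erythroid markers at 298733 and 343512 CPM in the DTA- and 415129 and 384563 CPM in the DTA+ libraries, higher in both. The part of these levels in the 2 calls was not tested. The call of *Lum* was lost without DTA+ replicate 1, that of *Aspn* without DTA+ replicate 1 or DTA- replicate 2, and both with the replicate number as a block.

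In the other 6 classes 0 of 14 pairs were called by edgeR's quasi-likelihood test, with 1 at an unadjusted p under 0.05, *Dcn* in macrophages (16.7 and 108 CPM in the DTA- and 101 and 178 CPM in the DTA+ libraries). The SLRPs were present in several of them. Pericytes, the contractile cells around small vessels, had 562 ± 51.0 CPM of *Bgn* and 478 ± 87.4 CPM of *Aspn* (SD, n = 4), with log2 fold changes of -0.23 ± 0.22 and -0.098 ± 0.24. Epithelial cells had *Dcn* at 873 and 907 CPM in the DTA- and 922 and 445 CPM in the DTA+ libraries, DTA+ replicate 2 being the low one, and *Fmod* at 42.2 and 41.8 CPM in the DTA- and 35.3 and 27.4 CPM in the DTA+ libraries. A smooth muscle cluster of 83 and 153 DTA- against 24 and 4 DTA+ cells was too small to be tested.

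Genes that work with the SLRPs were compared in the same fit over all mesenchymal cells, in which 1.26% of all genes were called. Of 10 other SLRP genes, 6 were tested and 1 rose, *Ecm2*, the neighbour of *Aspn* on chromosome 13 (49504810 to 49532789, plus strand). It too lies inside *Cenpp*, whose level in these cells was the higher (10.2 to 14.0 CPM), so the doubt about strand holds for it as well. *Ecm2* stood at 2.08 and 2.36 CPM in the DTA- and 7.03 and 5.61 CPM in the DTA+ libraries, both DTA+ libraries being above the controls, a log2 fold change of 1.44 ± 0.22 (adjusted p = 0.0401, edgeR's quasi-likelihood test). By population it was called higher in Thbd/Ptgis (3.23), Ecrg4/Sox9 (3.0) and Epha3/Calcrl (1.94), that is in 3 of the 4 populations in which it was tested. Over all genes, 12.7%, 7.76% and 3.46% were called in these 3 populations, in either direction. The filter on low counts can keep a population through the genotype in which *Ecm2* is high, so the 3 of 4 is only a description. The summed call was lost without DTA- replicate 1 (adjusted p = 0.0902), without DTA- replicate 2 (0.0592) and with no upper limit on UMIs per cell (0.0521; all edgeR). *Epyc*, next to *Kera*, reached 0.429 CPM in its highest population and *Nepn* had no UMI. The median log2 fold change of the list was -0.066.

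The enzymes that build and sulfate the sugar chains numbered 29, of which 28 were tested in the fit that called 1.26% of all genes. Of these 1 fell, *Chst1*, a sulfotransferase of keratan sulfate, at 10.6 and 14.2 CPM in the DTA- and 4.95 and 5.01 CPM in the DTA+ libraries, a log2 fold change of -1.38 ± 0.19 (adjusted p = 0.0314, edgeR's quasi-likelihood test), and 0 rose. By population it was tested in 10 and called in 1, Akap12/Dlk1, where it was lower (-3.11, adjusted p = 8.32e-05, edgeR). Of all genes, 4.24% were called in that population. *Lum* and *Kera*, which can carry such chains, were higher in Akap12/Dlk1. They were chosen on this contrast, and a link to *Chst1* was not tested. That population held 6.001 and 13.54% of mesenchymal cells in the DTA- and 4.444 and 3.933% in the DTA+ libraries. Of the 7 smooth muscle markers only *Des*, *Tagln* and *Myocd* were enriched in it. The subdermal prepuce markers *Dpt*, *Ly6a*, *Cd34* and *Smoc1* were enriched there as well. The paper reports *Myocd* in cells of the ablated lineage, part of which also expressed *Akap12*. Whether a loss of such cells played a part in the differences of this population was not tested. The summed call was lost without DTA- replicate 2 (adjusted p = 0.0526) and without the populations of uneven share (0.0507; edgeR). The median over the list was -0.11.

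Collagen fibril genes, all 28 tested, had 0 calls in the summed mesenchyme by edgeR's quasi-likelihood test, DESeq2 and the likelihood ratio test. By the quasi-likelihood test 4 had an unadjusted p under 0.05, beside 2645 of all 15209 genes tested. Their median log2 fold change was -0.26. The 27 tested growth factors, receptors and proteases that bind or cut SLRPs had 0 calls by the quasi-likelihood test (4 unadjusted, DESeq2 1, likelihood ratio test 2; median 0.015), and the 14 tested tendon and dense fibrous tissue genes also 0 (3 unadjusted, 1 by DESeq2, 1 by the likelihood ratio test; median 0.29). Within single populations, 1.74% of pairs over all genes were called higher and 1.87% lower. For the lists, 16 pairs of the collagen genes were higher and 12 lower of 371, and 24 and 15 of 328 for the growth factor list. The tendon list had 15 and 2 of 137, the chain enzymes 4 and 7 of 340, and the other SLRPs 4 and 0 of 34. Some genes named after their values were seen lead these counts. *Igf1r*, the receptor for insulin-like growth factor, was higher in 7 of 17 populations (summed log2 fold change 0.51, adjusted p = 0.0900, edgeR), and *Col8a1*, a short-chain collagen, in 6 of 15 (1.02, adjusted p = 0.0632, edgeR).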

How the data were processed

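Cells of the E16.5 penis were measured with a 10x Genomics 3′ kit in 2 DTA- and 2 DTA+ libraries. The deposited values are whole UMI counts per gene and cell, which the authors made with Cell Ranger (4.0.0 in the submitters' processing notes) on mm10 with reporter sequences added; 2 reporter rows were left out of the tests. Cells were kept by the study's limits, that is a UMI total above 1000 and below 7500, of which mitochondrial and *Hba* UMIs each made up at most 25% and *Hbb* UMIs at most 50%. The upper UMI limit removed 21.4% of cells in DTA- replicate 1 and 9.98 to 11.2% in the others. Doublets were not removed in the main analysis. Scrublet called 0 to 3 cells per library, against 649 to 788 expected at 0.8% per 1000 cells, so its calls do not show that doublets were absent.

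Cells were clustered with Seurat 5.3.0 (2000 variable genes, 30 principal components, resolution 0.8). A cluster was named from a marker list where at least 3 of its markers were enriched. In addition, at least 1 marker of that list had to be among the cluster's 10 most enriched genes detected in at least 20% of its cells. Of the mesenchymal populations, 2 count in the totals but are not reported here. As the cell types were rebuilt, they can differ from those of the study. UMIs were summed per library and population, filtered with filterByExpr, scaled by TMM and tested with edgeR 4.0.16 (quasi-likelihood test, genotype as the only term, Benjamini-Hochberg adjustment over all genes tested, threshold 0.05). Alternatives used DESeq2 1.42.0, edgeR's likelihood ratio test (the study names likelihood ratio tests within its single-cell analysis), other filters and cell definitions, the replicate number as a block, and each library left out. On simulated counts for the mesenchymal comparison (15209 genes, 200 changed by a log2 of 1), a median of 64% were recovered with 14 false calls over 3 runs.

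The members, the gene lists and the tests were chosen with earlier results of these data known. Named genes were the members, called genes of each list, the 5 genes most like each member and the leading genes of the populations; exceptions are marked where they appear. Macrophages rather than erythroid cells served as the background for the share of cells with a UMI, since the erythroid cluster carried mesenchymal RNA. The paper calls the replicates of its single-cell data biological and names mixed-effect models with replicate as the random term. The labels do not say that the libraries of a genotype came from separate litters. The p-values here measure the spread between these libraries, part of which may be technical. An exact permutation test of 2 against 2 libraries cannot go below p = 0.333. R 4.3.3 and Python 3.11.15 were used.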

Additional observations from a re-analysis of the deposited data

How the results depend on the processing

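The 192 genes called in mesenchymal cells became 632 with DESeq2, 932 with the likelihood ratio test, 1198 with no filter on low counts, 351 with cells thinned to 1000 UMIs, 87 without the 2 populations of uneven share, and 184 to 459 with each library left out. For the other SLRPs the count of 1 became 2 with no filter, 0 with no upper UMI limit and 0 to 2 with each library left out. That of the chain enzymes (1) became 0 without the uneven populations and 0 to 1 with each library left out, and that of the collagen genes (0) 5 with no filter and 0 to 3 with each library left out. The growth factor list (0) had 1 with DESeq2, 2 with the likelihood ratio test, 3 with no filter, 1 when thinned and 0 to 1 with each library left out, and the tendon list (0) 1 with DESeq2, the likelihood ratio test, thinning or the highest doublet scores removed, 3 with no filter and 1 to 2 with each library left out. With each library left out, the log2 fold change ran from 0.54 to 1.23 for *Lum*, 0.089 to 0.88 for *Kera*, -0.19 to -0.014 for *Bgn*, 0.53 to 0.80 for *Prelp* and 0.088 to 0.45 for the median of the 9 members, which was 0.13 without the uneven populations. Weighting populations equally gave 0.015 for *Bgn* and -0.52 for *Omd*. For *Aspn* it was 0.35 with no upper UMI limit, 0.58 when thinned, 0.46 without the uneven populations and 0.48 as a log2 ratio of mean CPM + 1, which gave -0.16 for *Omd* and 0.48 for *Prelp*, and thinning gave -0.47 for *Omd*. The 47 genes called in the 7 other classes became 18 with DESeq2, 111 with the likelihood ratio test, 244 with no filter and 86 to 344 with each library left out.

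Within populations the 21 calls became 34 with no filter, of which 17 were among the 21, and 23 to 32 with each library left out, the highest without DTA- replicate 1, and at resolutions of 0.4 and 1.2 there were 14 and 23. The 5 populations with *Dcn* called became 3 with DESeq2 or at resolution 0.4, 10 with no filter, and 4 to 10 with each library left out, with 10 without DTA- replicate 1, 9 without DTA- replicate 2 and 8 without DTA+ replicate 2. In erythroid cells the log2 fold change of *Lum* ran from 1.06 to 1.5, of *Dcn* from 0.29 to 1.05 and of *Aspn* from 0.85 to 1.48 with each library left out. *Dcn* there was called with no filter (0.71), and *Aspn* was not with DESeq2 (1.14). The cause was not tested for any of these changes. Shares over all genes in single populations under these settings are not given here, so the counts of member calls have no background. These alternatives for single populations and erythroid cells, and the one without uneven populations, were chosen after seeing the data.

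The labels give both genotypes the same replicate numbers but do not say that a number marks a shared litter or day. Over 15209 genes, same-numbered libraries did not deviate together but tended to deviate in opposite directions (correlation of deviations -0.26). Libraries with different numbers thus tended to deviate together between the genotypes, and the cause was not tested. With the replicate number as a block, the tendon list had 1 call, the other classes 31, the member and population pairs 33 and *Dcn* 8 populations, while *Lum* (1.28) and *Aspn* (1.13) lost their erythroid calls. Crossing the numbers, an alternative added after seeing the data, gave 1732 genes called in mesenchymal cells and 31 member and population pairs. For either block the share over all genes in single populations is not given here, so these counts of pairs have no background.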
